A study of Homo sapiens with 9 samples.

Results

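The transcription factor NRF2, encoded by NFE2L2, and 8 genes of its antioxidant and iron-storage programme (HMOX1, NQO1, GCLC, GCLM, SRXN1, TXNRD1, FTL and FTH1) were followed through RNA sequencing of HEK293 cells, a human embryonic kidney cell line. The 9 genes were listed by symbol for their known roles, with earlier results of these data known but by no rule on measured values, from a table of 35876 gene symbols, and all 9 passed the filter on low counts. Every cell group carried the element that the labels call CC_Cas9, where Cas9 is an RNA-guided DNA nuclease and the prefix CC is not explained. The Cas9 group (genotype CC_Cas9) had nothing further, the Cre group (CC_Cas9_Cre) also had the recombinase Cre, and the Flpo group (CC_Cas9_Flpo) also had the recombinase Flpo. Each group had 3 libraries, and the series concerns a gene knockout system that a chemical induces and that can be reversed. The labels give no drug treatment, time, clone or culture history for the libraries, so p-values measure the spread between these libraries, which may be technical.

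NRF2 is kept low in unstressed cells by KEAP1, an adaptor that hands it to a CUL3 ubiquitin ligase for destruction. Oxidants and electrophiles modify KEAP1, NRF2 then accumulates, pairs with a small MAF protein and binds antioxidant response elements in DNA, a place that the repressor BACH1 can also occupy. Its targets make glutathione, reduce thioredoxin and peroxiredoxins, detoxify quinones, break down heme and store the iron set free. NRF2 is governed mainly through the stability of its protein, which RNA sequencing does not measure.

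The antioxidant response element core, TGACNNNGC with N for any base, was searched on both strands of the RefSeq promoter windows (GRCh38.p14), which run from 250 bases before a gene's start to 50 bases after it. Windows were present for 7 of the 9 genes, all but HMOX1 and FTH1, and of these TXNRD1 and GCLM held matches. DNA outside the windows was not searched. At least 1 match was held by 3 of the 9 windows of these genes and by 13.3% of all 35116 windows. The 4 matches are all that were found in the windows of these genes. They are shown because TXNRD1 had its highest mean level in the Flpo group and GCLM its lowest. FTL and GCLC, which had windows but no match, also had their highest mean in the Flpo group. Each is printed 5′ to 3′ on the gene's strand in 29 bases, with the 9 matching bases in capitals. A match of these letters is a description and not a measured binding site.

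TXNRD1, first start, beginning 99 bases before it (chr12:104215670-104215698, plus strand): acacgggctaTGACTTCGCtgttgtcacc
TXNRD1, first start, beginning 8 bases before it, core on the opposite strand (chr12:104215761-104215789, plus strand): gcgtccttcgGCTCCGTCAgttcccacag
TXNRD1, second start, beginning 102 bases before it, core on the opposite strand (chr12:104286920-104286948, plus strand): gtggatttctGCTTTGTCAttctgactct
GCLM, beginning 34 bases before its start, core on the opposite strand (chr1:93909446-93909474, minus strand): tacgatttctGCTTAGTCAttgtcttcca

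Both ferritin mRNAs have a second, separate layer of control, the iron-responsive element, an RNA hairpin near the 5′ end that iron regulatory proteins bind to block translation. A bulged C, 5 further bases and the loop CAGTGN (together CNNNNNCAGTGN, forward strand only) were found once in the first 250 bases of the GENCODE 29 principal transcript of each. The same letters occurred in the first 250 bases of the longest protein-coding transcript of 9.01% of 19640 genes. The sites are shown in 30 bases with the searched letters in capitals, because FTL and FTH1 share all but the last of those 12 letters.

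FTH1, starting at base 65 of the transcript: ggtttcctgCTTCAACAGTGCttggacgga
FTL, starting at base 41 of the transcript: tgtctcttgCTTCAACAGTGTttggacgga

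Library totals limited what could be seen. They ran from 993902 to 3761779 estimated counts in the Cas9 group, from 213907 to 1701730 in the Cre group and from 4989524 to 8833491 in the Flpo group, so that Cre and Flpo totals did not overlap. Cre replicate 2 was the smallest, and 3 counts there were worth 11.2 CPM (counts scaled to a common library total), against 0.479 CPM in Flpo replicate 3. CPM values here are scaled with TMM factors, a correction for differences in library composition. Of 8 markers of HEK293 cells, 3 exceeded 3 counts in every Cas9 and every Cre library and 5 in every Flpo library, with PAX2 at 0 in the Cre and Flpo groups and INA at 0 in the Cre group. The extraction protocol also names livers. Of 8 hepatocyte markers 1, TF, exceeded 3 counts in every library, with means of 32.3, 51.1 and 42.2 CPM in Cas9, Cre and Flpo. Counts were found for 3, 4 and 7 of the 8 in those groups. ALB was at 0 in the Cas9 and Cre groups and had 5 counts in the Flpo group. Of 5 blood markers, 1 exceeded 3 counts in every Cas9 and every Cre library and 3 in every Flpo library. LYZ had means of 139, 205 and 79.1 CPM, while PTPRC and HBB were at 0 in the Cas9 and Cre groups. Fibroblast markers (COL1A1, COL1A2, COL3A1, DCN and LUM, all with counts in each group) summed to between 264 and 893 CPM in the Cas9 group, between 550 and 6484 in the Cre group and between 253 and 326 in the Flpo group. Of the 4 tested fibroblast markers, 3 (COL1A1, COL1A2 and COL3A1) were called higher in Cre than in Flpo (edgeR adjusted p under 0.05), against 6.17% of all genes. The log2 fold change of DCN, 1.84, did not pass (edgeR adjusted p = 0.188).

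Of the 9 antioxidant genes, 3 differed between the recombinase groups: TXNRD1, FTL and FTH1 were lower with Cre than with Flpo, by 4.57-fold, 12.7-fold and 6.45-fold. The other 6 did not pass there, and no gene of the 9 passed for either recombinase against Cas9 alone. The directions were mixed, since GCLM had its lowest mean in the Flpo group, where the mean of 7 of the other 8 was highest. GCLM codes for the modifier subunit of glutathione synthesis. Of all genes, 14.3% were called lower with Cre than with Flpo and 6.17% higher. The calls of TXNRD1, FTL and FTH1 were lost with library total as a covariate, and also without certain single libraries, as given below.

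**Figure D1:**
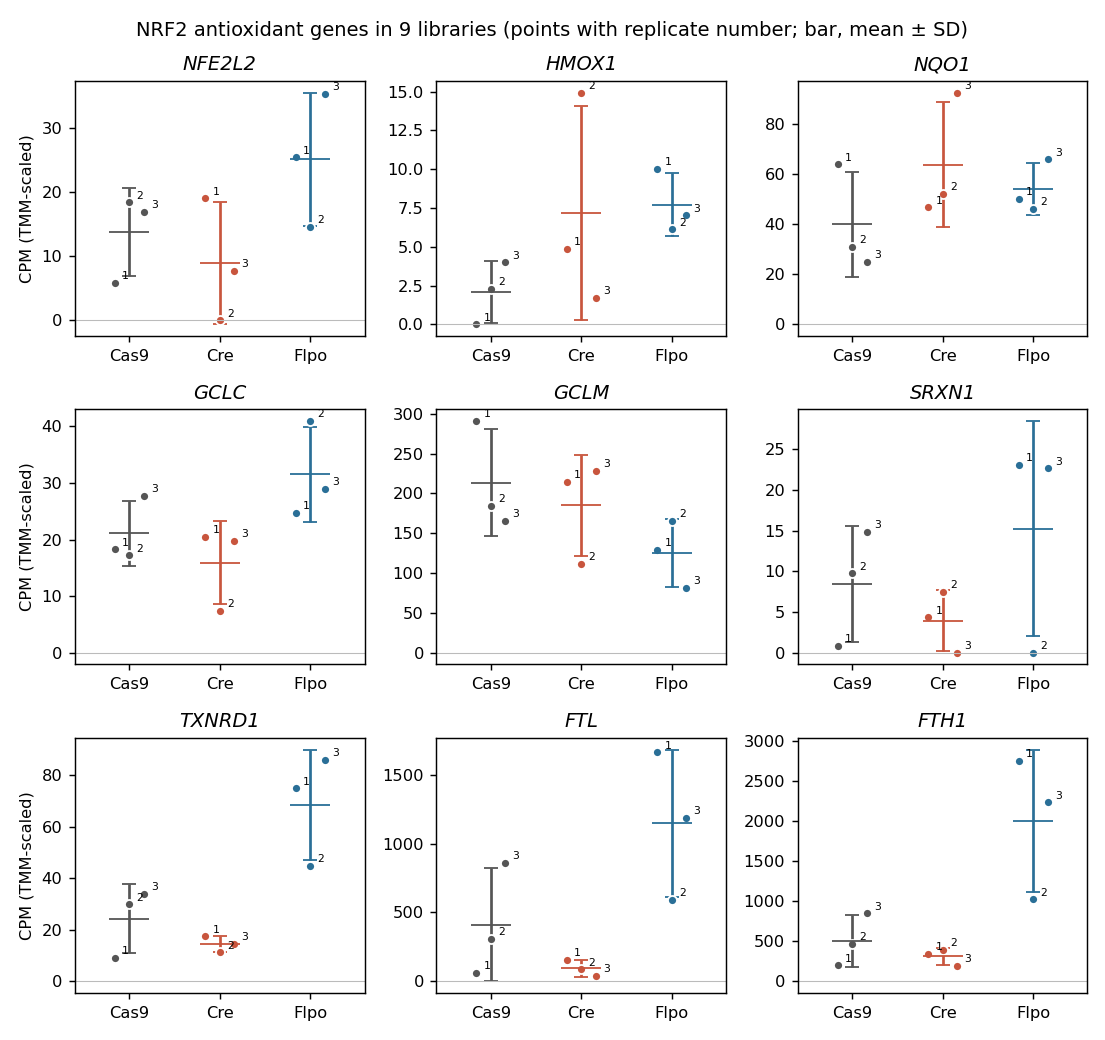
Level of each of the 9 genes (vertical axes, TMM-scaled CPM, linear and different for each gene) in the Cas9, Cre and Flpo groups. Points are libraries with their replicate numbers, and bars are the mean ± SD of 3 libraries. For TXNRD1, FTL and FTH1 the 3 Flpo points lie above the 3 Cre points, while GCLM has its lowest mean, 125 CPM, in the Flpo group.

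NFE2L2 itself (chromosome 2, 177227595 to 177392697, minus strand) was a low-count gene. It was at 5.82, 18.4 and 16.8 CPM in Cas9 replicates 1, 2 and 3, at 19.0, 0 and 7.72 CPM in those with Cre, and at 25.4, 14.6 and 35.3 CPM in those with Flpo. The groups overlapped in every pair. The 0 in Cre replicate 2 allows up to 11.2 CPM, so the gene was not detectable at this depth there rather than shown to be absent. The log2 fold changes, with standard errors, were −0.38 ± 0.76 for Cre against Cas9, 0.85 ± 0.73 for Flpo against Cas9 and −1.24 ± 0.76 for Cre against Flpo. Their edgeR adjusted p-values were 0.837, 0.524 and 0.231.

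The genes whose pattern over the 9 libraries was most like that of NFE2L2, by Pearson correlation of log2 CPM among 7697 other genes with a mean of at least 50 counts, were ERLEC1 (0.993), CDCA8 (0.991), EIF1AX (0.990), CPNE3 (0.990) and RTRAF (0.987). None of these is one of the 9. Among the 9, GCLC (0.826) and TXNRD1 (0.721) followed NFE2L2 most closely, while HMOX1 (−0.10), NQO1 (−0.20) and GCLM (−0.04) did not. These are descriptions over libraries that share depth and composition differences.

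Glutamate-cysteine ligase makes the dipeptide from which glutathione is built. Its catalytic subunit GCLC (chromosome 6, 53497341 to 53616970, minus strand) was at 18.3, 17.2 and 27.7 CPM in the Cas9 replicates, at 20.5, 7.47 and 19.7 CPM in those with Cre and at 24.7, 40.9 and 28.9 CPM in those with Flpo. Every Flpo library was above every Cre library, although the log2 fold change of Cre against Flpo, −0.89 ± 0.54 (SE), did not pass (edgeR adjusted p = 0.225). Cre replicate 2 had 2.20 estimated counts of GCLC, under the 3-count floor.

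The modifier subunit GCLM (chromosome 1, 93885205 to 93909456, minus strand), which raises the activity of the catalytic subunit, had its lowest group mean in Flpo. It was at 291, 185 and 166 CPM in the Cas9 replicates, at 215, 112 and 228 CPM in those with Cre and at 129, 166 and 81.3 CPM in those with Flpo. Flpo lay at or below Cas9 without overlap, though Flpo replicate 2 and Cas9 replicate 3 were both at 166 CPM. The log2 fold change of Flpo against Cas9 was −0.77 ± 0.50 (SE, edgeR adjusted p = 0.407), and that of Cre against Flpo was 0.57 ± 0.50 (edgeR adjusted p = 0.401).

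Because both subunits are read in the same library, their ratio does not depend on how libraries are scaled to each other. GCLM supplied 94.0%, 91.5% and 85.7% of the GCLC and GCLM counts in the Cas9 replicates, 91.3%, 93.2% and 92.0% in those with Cre, and 84.0%, 80.2% and 73.8% in those with Flpo. The Flpo libraries were below all the others. Group means were 90.4% ± 4.28, 92.2% ± 0.982 and 79.3% ± 5.17 (SD, n = 3 each), and an exact permutation test over all 1680 assignments of the libraries to the groups gave p = 0.0286. Between pairs of groups the exact two-sided p was 0.1 for Flpo against Cas9 and for Cre against Flpo, the smallest that 3 against 3 allows, and 0.8 for Cre against Cas9. Without Flpo replicate 2 or Flpo replicate 3 the 3-group exact p was 0.0643. Library totals were also highest in the Flpo group, and after every library was thinned to the smallest total the difference between Cre and Flpo was 15.3 percentage points, against 12.9 before, with a 3-group exact p of 0.025. GCLC no longer passed the count filter after thinning, so the thinned shares rest on few GCLC counts. In Cre replicate 2 the share rested on 2.20 estimated counts of GCLC without thinning. Within the Cas9 group the share was also lower in the larger libraries, at 94.0%, 91.5% and 85.7% for totals of 993902, 1643166 and 3761779, and over the 9 libraries log2 CPM of GCLC correlated with log2 total at 0.873. Thinning does not remove a library property that follows the total, and group and such a property cannot be told apart.

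**Figure D2:**
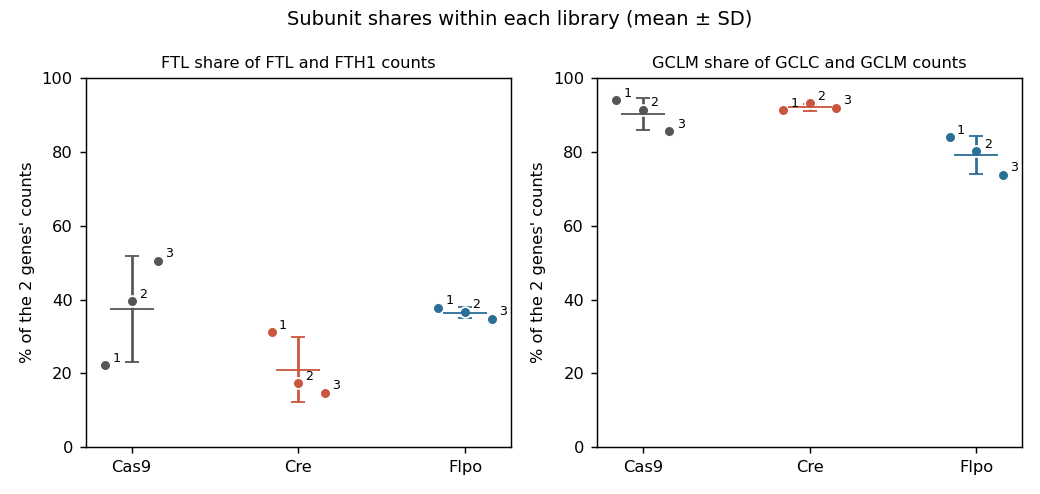
Share of the counts of 2 paired subunits that came from one of them (vertical axes, percent, from 0 to 100) in the Cas9, Cre and Flpo groups, as FTL of FTL and FTH1 (left) and GCLM of GCLC and GCLM (right). Points are libraries with replicate numbers and bars the mean ± SD of 3. The 3 Flpo libraries, at 73.8% to 84.0%, hold the lowest GCLM shares.

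TXNRD1 (chromosome 12, 104215779 to 104350305, plus strand) codes for the cytosolic selenoprotein that uses NADPH to reduce thioredoxin. It was at 9.14, 29.8 and 34.0 CPM in the Cas9 replicates, at 17.5, 11.2 and 14.6 CPM in those with Cre and at 74.9, 44.7 and 86.0 CPM in those with Flpo. Every Flpo library was above every library of the other groups. Against Flpo, the Cre group was lower by a log2 fold change of −2.19 ± 0.59 (SE, edgeR adjusted p = 0.0260), or −1.85 relative to the median of all genes. Flpo against Cas9 gave 1.48 ± 0.55 (SE, edgeR adjusted p = 0.165), and Cre against Cas9 gave −0.72 ± 0.58 (SE, edgeR adjusted p = 0.646). The value in Cre replicate 2 rests on 3.02 estimated counts, and without that library the difference between Cre and Flpo was −2.06 (edgeR adjusted p = 0.0653).

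SRXN1 (chromosome 20, 646615 to 653370, minus strand) codes for sulfiredoxin, which restores over-oxidised peroxiredoxins. It had 1, 17 and 52 counts in the Cas9 replicates (0.831, 9.75 and 14.8 CPM), 9, 2 and 0 in those with Cre (4.39, 7.47 and 0 CPM) and 134, 0 and 142 in those with Flpo (23.1, 0 and 22.7 CPM). Flpo replicate 2 stood apart from its group with no count among 4989524, which allows at most 0.767 CPM. Cre against Flpo was −2.25 ± 1.46 on the log2 scale (SE, edgeR adjusted p = 0.257). Without Flpo replicate 2 it was −2.83 and passed (edgeR adjusted p = 0.0393), in a fit that called 5559 of 12595 genes.

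NQO1 (chromosome 16, 69706996 to 69726951, minus strand), the quinone reductase often used as a readout of NRF2, showed no such gap. It was at 64.0, 31.0 and 25.1 CPM in the Cas9 replicates, at 46.8, 52.3 and 92.7 CPM in those with Cre and at 50.2, 46.3 and 65.9 CPM in those with Flpo. All 3 groups overlapped. Log2 fold changes were 0.69 ± 0.51 for Cre against Cas9, 0.45 ± 0.50 for Flpo against Cas9 and 0.25 ± 0.51 for Cre against Flpo (SE), with edgeR adjusted p-values of 0.629, 0.640 and 0.728.

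HMOX1 (chromosome 22, 35380361 to 35394214, plus strand), the inducible heme oxygenase that releases iron from heme, was near the floor. It had 0, 4.48 and 13.6 estimated counts in the Cas9 replicates (0, 2.30 and 4.0 CPM), 10.4, 3.94 and 2.11 in those with Cre (4.87, 14.9 and 1.72 CPM) and 58.0, 24.3 and 44.2 in those with Flpo (10, 6.13 and 7.02 CPM). Every Flpo library was above every Cas9 library, while the Cre libraries spanned both. Flpo against Cas9 was 1.70 ± 0.91 on the log2 scale (SE, edgeR adjusted p = 0.315), and Cre against Flpo was −0.45 ± 0.95 (SE, edgeR adjusted p = 0.736).

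Ferritin stores iron in a shell of heavy and light chains, and only the heavy chain FTH1 oxidises the iron as it enters. FTH1 (chromosome 11, 61959718 to 61967660, minus strand) was at 199, 465 and 846 CPM in the Cas9 replicates, at 343, 396 and 195 CPM in those with Cre and at 2751, 1021 and 2229 CPM in those with Flpo. The Flpo libraries did not overlap with either other group. Cre against Flpo was −2.69 ± 0.75 on the log2 scale (SE, edgeR adjusted p = 0.0290), or −2.35 relative to the median of all genes. Flpo against Cas9 was 1.99 ± 0.73 (SE, edgeR adjusted p = 0.157) and Cre against Cas9 was −0.70 ± 0.71 (SE, edgeR adjusted p = 0.696).

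The light chain FTL (chromosome 19, 48965301 to 48966878, plus strand) was at 56.5, 305 and 862 CPM in the Cas9 replicates, at 154, 82.1 and 33.5 CPM in those with Cre and at 1667, 590 and 1189 CPM in those with Flpo. Flpo lay wholly above Cre, but Cas9 replicate 3 lay above Flpo replicate 2. Cre against Flpo was −3.67 ± 0.96 on the log2 scale (SE, edgeR adjusted p = 0.0243), or −3.33 relative to the median of all genes. Cre against Cas9 was −2.17 ± 0.90 (SE, edgeR adjusted p = 0.619, unadjusted 0.0315).

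As a share of the ferritin counts within a library, FTL made up 22.1%, 39.6% and 50.5% in the Cas9 replicates, 31.1%, 17.2% and 14.6% in those with Cre and 37.7%, 36.6% and 34.8% in those with Flpo. The Flpo shares lay close together and above every Cre share. Group means were 37.4% ± 14.3, 21.0% ± 8.84 and 36.4% ± 1.49 (SD, n = 3 each), and the exact permutation p for the 3 groups was 0.15. Without Cas9 replicate 1 it was 0.0393, with the same mean difference of −15.4 percentage points between Cre and Flpo.

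Ferritin has many processed pseudogenes, among which reads can be divided. The table held 25 pseudogenes named after FTH1 and 16 named after FTL. FTH1P3 (388 counts over the 9 libraries) and FTH1P16 (205) led the first set, and FTLP6 (30.2) and FTLP10 (25.9) the second. Pseudogene counts were 15.5% of the FTH1 sum in Cre replicate 2 and between 0.764% and 6.34% elsewhere, and between 0.104% and 14.6% of the FTL sum, highest in Cre replicate 3. With these counts added back, Cre against Flpo was −2.59 for FTH1 and −3.58 for FTL (edgeR adjusted p = 0.0318 and 0.0242). Exons of NFE2L2, NQO1, GCLC, SRXN1 and FTH1 overlap exons of other annotated genes, for FTH1 those of BEST1 on the opposite strand, and the use of strand in counting is not given in the sources used here.

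The 5 genes most like FTH1 over the 9 libraries, by the same correlation of log2 CPM, were PRDX4 (0.997), EEF1A1 (0.996), MTCH2 (0.994), NDUFB6 (0.992) and PPIA (0.991). Among the 9 antioxidant genes, FTH1, FTL and TXNRD1 formed the tightest set, with pairwise correlations of 0.950 for FTL and FTH1, 0.945 for TXNRD1 and FTH1 and 0.932 for TXNRD1 and FTL. GCLM ran against them, at −0.76 with FTH1, −0.65 with TXNRD1 and −0.62 with FTL. Over the same 9 libraries, log2 CPM of TXNRD1, FTL and FTH1 correlated with log2 library total at 0.904, 0.862 and 0.813, and that of GCLM at −0.33. The part of library total in the correlations between genes was not tested.

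Between genes, levels were compared as CPM per kilobase of the principal transcript. In the Cas9 group the ferritin chains were far above the rest, with FTL at 464 ± 470 and FTH1 at 410 ± 264 CPM per kilobase (SD, n = 3 each), and these did not differ beyond their spread. GCLM followed at 44.0 ± 13.9 and NQO1 at 13.7 ± 7.19. TXNRD1 (6.19 ± 3.39), GCLC (5.52 ± 1.51), NFE2L2 (4.79 ± 2.40), SRXN1 (3.14 ± 2.63) and HMOX1 (1.15 ± 1.10) came last, and neighbours in that order lay within their spread between libraries. Within each Cas9 library, however, HMOX1 (0, 1.26 and 2.19 in replicates 1, 2 and 3) was below SRXN1 (0.308, 3.62 and 5.50). SRXN1 was in turn below NFE2L2 (2.04, 6.44 and 5.91) in each. The order of TXNRD1, GCLC and NFE2L2 changed between these libraries. In the Flpo group FTH1 stood at 1628 ± 722, FTL at 1308 ± 615, GCLM at 25.8 ± 8.71, NQO1 at 18.6 ± 3.57 and TXNRD1 at 17.4 ± 5.44 CPM per kilobase. In the Cre group FTH1 stood at 253 ± 84.7, FTL at 103 ± 69.3, GCLM at 38.1 ± 13.1 and NQO1 at 21.9 ± 8.61, with the other 5 at 4.17 or below.

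The counts were read against all 11905 genes tested. For Cre against Flpo, 3 of 9 were called lower and 0 higher, where 14.3% of all genes were called lower and 6.17% higher. Groups did not overlap for 4 of 9 (GCLC, TXNRD1, FTL and FTH1), against 43.2% of all genes, a share like that of the background. The median log2 fold change of the 9 was −1.24 and that of all genes −0.34. For Flpo against Cas9, 0 of 9 were called against 0.227% of all genes, 2 (TXNRD1 and FTH1) had an unadjusted p under 0.05 against 20%, and 4 did not overlap (HMOX1, TXNRD1 and FTH1 higher and GCLM lower) against 25%. DESeq2 called 1 of them, FTH1 (adjusted p = 0.0319), in a fit that called 1065 of 11812 genes. Without Flpo replicate 2 edgeR called TXNRD1 (1.69, adjusted p = 0.0431) and FTH1 (2.30, 0.0355), among 2685 calls in 12595 genes. For Cre against Cas9, 0 of 9 were called against 0% of all genes by edgeR, 0 by DESeq2, 1 (FTL) had an unadjusted p under 0.05 against 7.38%, and 0 did not overlap against 9.83%. When all 3 groups were tested jointly for a difference of any kind, TXNRD1 was the 1 gene called (edgeR adjusted p = 0.0491), against 9.51% of all genes, with FTH1 and FTL (0.0562) just above the threshold. The call of TXNRD1 in that test was lost with RLE scaling, without TMM, with a replicate block and with library total as a covariate. After thinning to the smallest total TXNRD1 no longer passed the count filter, and 0 genes were called. The call was also lost without Cas9 replicate 2, any of the Cre libraries, Flpo replicate 1 or Flpo replicate 3. By contrast, 3 genes were called without Cas9 replicate 1, Cas9 replicate 3 or Flpo replicate 2.

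**Figure D3:**
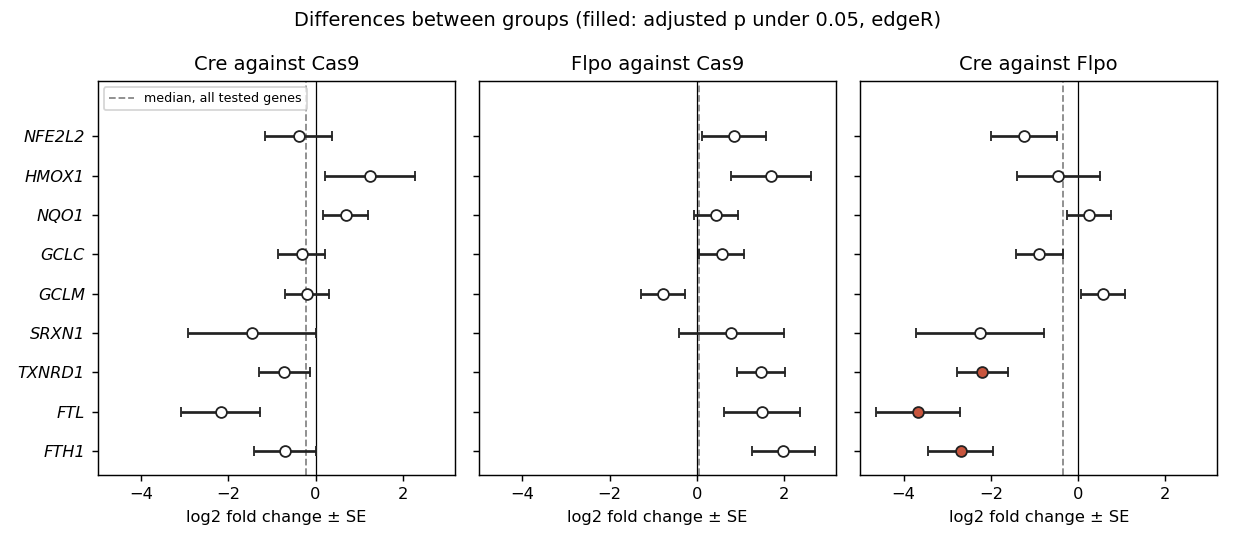
Log2 fold change ± SE (horizontal axes) of the 9 genes for the 3 pairs of groups, one panel each, from edgeR. Filled points have an adjusted p under 0.05, and the dashed line is the median of all tested genes; only TXNRD1, FTL and FTH1 in Cre against Flpo are filled, at −2.19, −3.67 and −2.69.

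The calls of TXNRD1, FTL and FTH1 between Cre and Flpo were lost, with most calls of the whole table, when any 1 of 4 libraries was left out. Without Cre replicate 2, Cre replicate 3 or Flpo replicate 3, 0 of 9 genes were called, and without Flpo replicate 1, 0 of the 8 that passed the filter. Of all genes, edgeR then called 0 of 13691, 0 of 13796, 405 of 12352 and 0 of 12431, in that order, against 2440 of 11905 with every library. An unadjusted p under 0.05 was found for 4721, 3359, 3280 and 3233 genes, in that order, against 4734 with every library. The 3 genes had adjusted p-values between 0.0560 and 0.135 in edgeR without these libraries, and their log2 fold changes stayed between −2.02 and −3.66. Without TMM scaling, which moved the median of all genes from −0.34 to 0.44, FTL was called at −2.87 (edgeR adjusted p = 0.0325), while TXNRD1 at −1.40 and FTH1 at −1.88 were not (0.0793 and 0.0572). That scaling also turned the split of all calls from 735 higher and 1705 lower in Cre to 2039 higher and 840 lower.

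The level of these genes also moved with library total. In the 5 libraries of up to 1701730 counts TXNRD1 was at 9.14 to 29.8 CPM, FTL at 33.5 to 305 and FTH1 at 195 to 465. In the 4 libraries of at least 3761779 counts TXNRD1 was at 34.0 to 86.0, FTL at 590 to 1667 and FTH1 at 846 to 2751. These 4 were the Flpo libraries and Cas9 replicate 3. With log2 library total as a covariate the Cre against Flpo values were −0.64 for TXNRD1, −1.30 for FTL and −1.80 for FTH1, with edgeR adjusted p-values from 0.837 to 0.936. After random thinning of every library to the smallest total, FTL was −3.56 and FTH1 −2.74 (edgeR adjusted p = 0.0232 and 0.0304), and TXNRD1 no longer passed the count filter. Group and a library property that follows the total cannot be told apart between Cre and Flpo, and the part of the fibroblast markers, highest in Cre, was not tested.

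**Figure D4:**
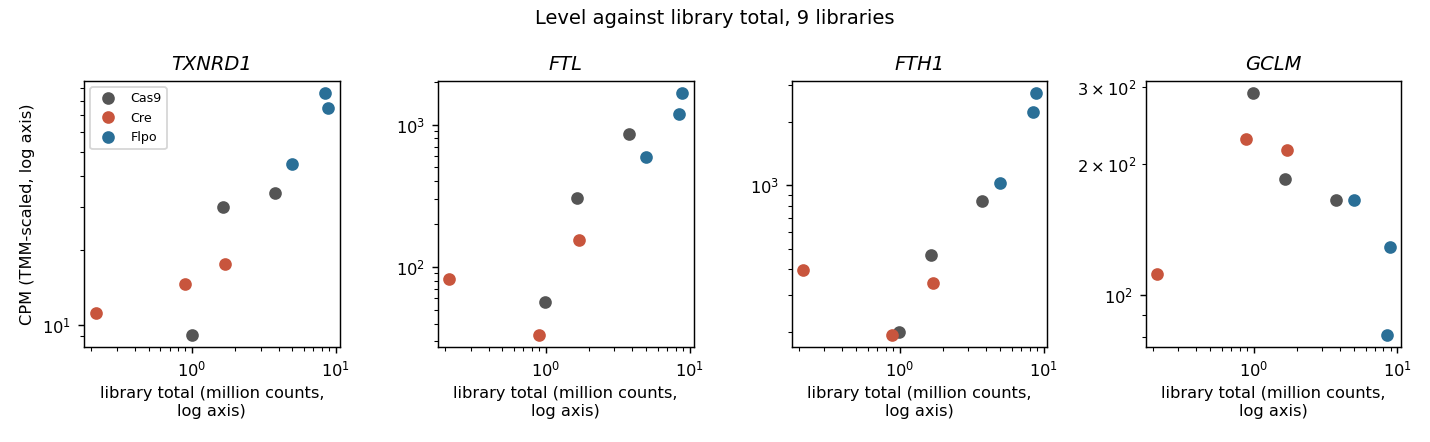
TMM-scaled CPM (vertical, log axis) of TXNRD1, FTL, FTH1 and GCLM against the total estimated count of the library (horizontal, log axis), one point per library coloured by group. TXNRD1, FTL and FTH1 are higher in all 4 larger libraries than in any of the 5 smaller ones, and GCLM is lowest in Flpo replicate 3, at 81.3 CPM.

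The regulators around NRF2 were examined as a list of 12 genes, of which 10 were tested. Between Cre and Flpo 3 were lower and 0 higher, where 14.3% of all genes were lower and 6.17% higher, with a list median of −0.88 against −0.34. The 3 were RBX1, the RING subunit of the KEAP1 ligase (log2 fold change −3.18 ± 0.80, edgeR adjusted p = 0.0218), MAFG, a small MAF partner (−3.83 ± 1.23, 0.0438), and SQSTM1, the autophagy receptor that can sequester KEAP1 (−1.98 ± 0.57, 0.0316). MAFG stood at 0.487, 0 and 2.57 CPM in those with Cre and at 21.6, 11.2 and 20.1 CPM in those with Flpo, where 0 and 1 counts make its fold change imprecise. With library total as a covariate MAFG was at 0.0717, and its call was kept in 7 of 14 alternatives, that of SQSTM1 in 8 of 16 and that of RBX1 in 11 of 16. KEAP1 gave −1.02 ± 0.65 (edgeR adjusted p = 0.254) and BACH1 0.66 ± 0.94 (0.612), so neither passed.

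The thioredoxin and peroxiredoxin list had 4 of 10 lower in Cre than in Flpo and 0 higher, against 14.3% and 6.17% of all genes, with a median of −2.02. PRDX1, an abundant peroxiredoxin, was at 59.9, 48.5 and 39.5 CPM in those with Cre and at 1445, 286 and 1284 CPM in those with Flpo (−4.34 ± 0.84, edgeR adjusted p = 0.0167). TXN, the thioredoxin that TXNRD1 reduces, was at 36.1, 85.9 and 27.5 CPM and at 757, 157 and 750 CPM (−3.54 ± 0.88, 0.0211). PRDX4, of the endoplasmic reticulum, and PRDX6 gave −3.76 ± 0.82 (0.0174) and −2.79 ± 0.73 (0.0240). In all 4 genes Flpo replicate 2 was the lowest Flpo library and still above every Cre library. The calls were kept in 12 of 16 alternatives for PRDX1 and PRDX4 and in 11 of 16 for TXN and PRDX6.

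The glutathione list had 4 of 11 tested genes lower in Cre than in Flpo and 0 higher, against 14.3% and 6.17% of all genes, with a median of −1.26. They were SLC3A2, the heavy chain of the cystine transporter (−3.46 ± 0.77, edgeR adjusted p = 0.0182), the transferases GSTP1 (−2.95 ± 0.90, 0.0379) and MGST1 (−2.52 ± 0.53, 0.0167), and GPX4, which reduces lipid peroxides (−2.09 ± 0.69, 0.0480). With library total as a covariate GPX4 was at 0.29 and GSTP1 at 0.12, and the calls were kept in 7 of 16 alternatives for GPX4, 10 for GSTP1 and 12 for SLC3A2. SLC7A11, the light chain that carries the cystine, did not pass at 0.40 ± 0.58 (0.618). MGST1 was the 1 gene of all the lists that passed against Cas9, where 0.218% of all genes were called higher in Flpo. It was at 12.5, 12.6 and 18.8 CPM in the Cas9 replicates, 13.2, 33.6 and 13.7 CPM in those with Cre and 109, 105 and 102 CPM in those with Flpo. The 3 Flpo values were close together and far above the rest, with a log2 fold change over Cas9 of 2.83 ± 0.51 (SE, edgeR adjusted p = 0.0437), though 12 of 16 alternative fits did not pass, with values from 2.31 to 3.15 over all 16.

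The heme and iron list, the setting of HMOX1 and ferritin, had 5 of 12 tested genes lower in Cre than in Flpo and 0 higher, against 14.3% and 6.17% of all genes, with a median of −1.39. FECH, which inserts iron into protoporphyrin to make heme, was at −3.28 ± 0.78 (edgeR adjusted p = 0.0197). PCBP1, an iron chaperone that delivers iron to ferritin, was at −2.90 ± 0.69 (0.0197), and NCOA4, the receptor that takes ferritin to the lysosome, at −2.49 ± 0.82 (0.0482). STEAP3, a ferrireductase, was at −2.63 ± 0.86 (0.0460), and HMOX2, the constitutive heme oxygenase, at −1.67 ± 0.54 (0.0444). With library total as a covariate NCOA4 was at 1.18 and STEAP3 at 0.48, and the calls were kept in 7 of 15 alternatives for each, against 9 of 14 for FECH and 10 of 16 for PCBP1. The transferrin receptor TFRC gave −0.94 ± 0.47 (0.151) and IREB2, an iron regulatory protein, −0.29 ± 0.49 (0.668), so neither passed.

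The remaining lists were smaller or mixed. Of 3 genes for superoxide and hydrogen peroxide removal, SOD1, the cytosolic superoxide dismutase, was lower in Cre than in Flpo (−2.96 ± 0.71, edgeR adjusted p = 0.0201), while SOD2 and CAT were at −2.07 and −1.93 and did not pass. Of 6 NADPH-supplying genes, TALDO1 of the pentose phosphate pathway was lower (−2.16 ± 0.69, 0.0429). Of 11 tested genes for quinones, carbonyls and export, CBR1 (−3.30 ± 0.98, 0.0341) and UGDH (−1.84 ± 0.61, 0.0497) were lower, and the epoxide hydrolase EPHX1 was higher (2.54 ± 0.84, 0.0481). EPHX1 was at 13.2, 3.73 and 13.7 CPM in those with Cre and at 0.690, 3.32 and 1.76 CPM in those with Flpo. It was the 1 gene of the 7 wider lists called higher in Cre than in Flpo, where 20 were called lower. Of all genes, 6.17% were called higher and 14.3% lower. AKR1B10, a low-count gene (3.12, edgeR adjusted p = 0.0683), and GSR (1.39, 0.109) were also higher in Cre without overlap, but did not pass. The call of EPHX1 was kept in 7 of 14 alternatives, that of UGDH in 5 of 16, TALDO1 in 7 of 16, CBR1 in 7 of 15 and SOD1 in 11 of 16. With library total as a covariate, or without Cre replicate 2, Cre replicate 3 or Flpo replicate 1, no gene of the whole table was called between Cre and Flpo by edgeR, so every call in the 7 lists was lost there; with an unadjusted p under 0.05 there were 731 genes with the covariate. Cre against Cas9 gave 0 calls in each of these lists.

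**Figure D5:**
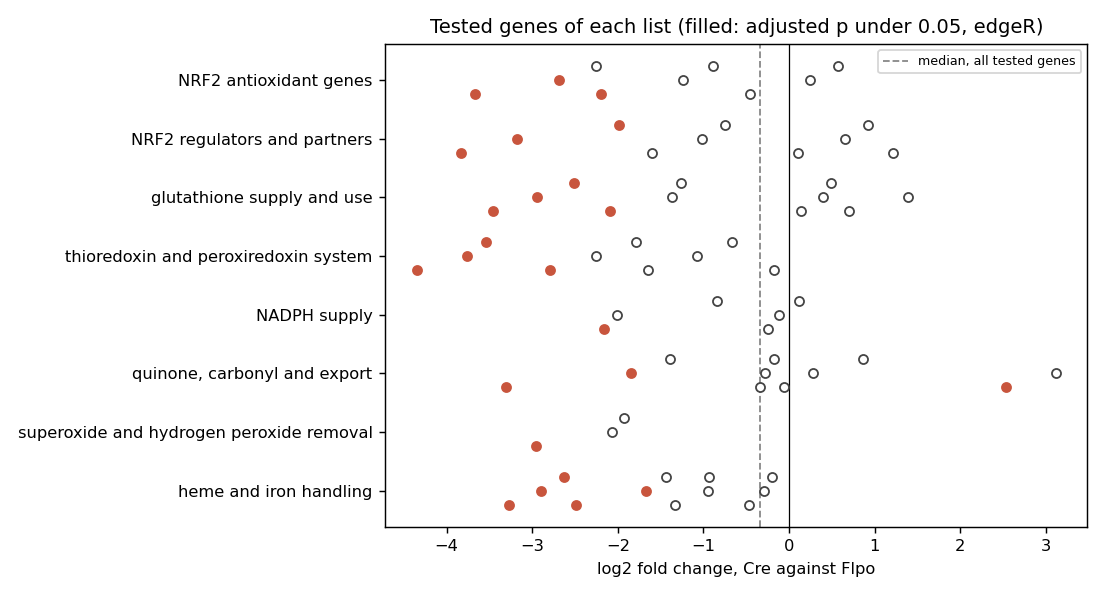
Log2 fold change of Cre against Flpo (horizontal axis) for each tested gene of the 9 antioxidant genes and of the 7 wider lists (rows; vertical offsets only separate points). Filled points have an edgeR adjusted p under 0.05 and the dashed line is the median of all tested genes, at −0.34; filled points lie to the left except EPHX1 at 2.54.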

How the data were processed

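RNA from 9 HEK293 libraries was sequenced by the authors. The deposited table holds estimated counts per gene symbol, and the submitters' processing notes name Salmon 0.14.1 and the build hg38. The transcript set and the use of strand are not given in the sources used here. All 9 columns were matched to samples by name, with 0 columns not used, and the estimated counts were rounded to whole numbers for testing. Genes passing edgeR's filter (minimum count 10, minimum total 15) were scaled with TMM factors and fitted over all 3 groups with the quasi-likelihood test of edgeR 4.0.16 in R 4.3.3, with Benjamini-Hochberg adjustment over all genes and a threshold of 0.05. Standard errors were approximated from the F statistic, as log2 fold change over its square root. CPM values were computed from the rounded counts. Shares within a library were compared by exact permutation tests (Python 3.11.15), two-sided between pairs of groups. A count of 0 allows up to 3 counts, a limit that covers counting error only. In bulk samples fewer cells of a type and less RNA per cell cannot be told apart. No 2 libraries agreed within sampling noise (lowest chi-square per degree of freedom 10.8). Coordinates and transcripts are from GENCODE 29 (GRCh38).

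Named were all 9 genes, and from each wider list up to 4 genes past the threshold with the largest change, plus KEAP1, BACH1, SQSTM1, SLC7A11, TXN, PRDX1, TFRC and IREB2. HMOX2, SOD2, CAT, AKR1B10 and GSR were named after their values were seen. The genes and lists were chosen for their known roles, by no rule on measured values, but with earlier results of these data known. Alternatives were other scaling (RLE or none), no filter, a minimum count of 30, only the groups compared, a replicate block, library total as a covariate, thinning, added pseudogene counts, DESeq2 1.42.0, and leaving out each library. The fits were also run on simulated data with a smaller spread than these libraries, whose common biological coefficient of variation was 0.556. That run checked the working of the fits and does not give their error rates at this spread.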

Additional observations from a re-analysis of the deposited data

Results flagged for a closer look

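For TXNRD1, FTL and FTH1 the difference of Cre from Cas9 and that of Flpo from Cas9 were not the same, by the test of Cre against Flpo, which is the test of that difference because both are measured from the same Cas9 libraries. The log2 fold changes of Cre against Flpo were −2.19 for TXNRD1, −3.67 for FTL and −2.69 for FTH1. Their edgeR adjusted p-values were 0.0260, 0.0243 and 0.0290. All 3 Flpo libraries were above all 3 Cre libraries for each gene. Of all genes, 14.3% were called lower in the same test, and the groups did not overlap for 43.2%. The calls of the 3 genes were lost with library total as a covariate, and also without certain single libraries.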

How the results depend on the processing

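For Cre against Cas9, 0 of the 9 genes were called by any alternative. For Flpo against Cas9 the count was 1 with DESeq2 and 0 to 2 without single libraries. For Cre against Flpo it was 1 without TMM scaling, 0 with library total as a covariate, 2 with the replicate block and 0 to 4 without single libraries. For any difference among the groups it was 0 with RLE scaling, without TMM, with the replicate block, with the total as a covariate and after thinning, 3 without the filter and with DESeq2, and 0 to 3 without single libraries. Deviations of same-numbered replicates from their group means correlated between −0.55 and 0.53. They were not compared with those of differently numbered replicates, so whether replicate numbers pair the samples was not settled. With the block, all-gene calls were 0 for Cre against Cas9, 6 for Flpo against Cas9 and 1568 for Cre against Flpo. DESeq2 called 4, 1065 and 3976 genes in the same order. Over all alternatives the calls ranged from 0 to 51, 0 to 2685 and 0 to 5559, and from 0 to 4194 for any difference. The FTL share difference of Cre from Flpo ranged from −20.4 to −12.2 points without single libraries, and was −15.4 (exact p = 0.0393) without Cas9 replicate 1. That of GCLM ranged from 10.1 to 15.2, at 13.3 and 10.1 (exact p = 0.0643) without Flpo replicates 2 and 3. With the total as a covariate the log2 fold change reversed for NFE2L2 (0.44 for Cre against Cas9, −1.20 for Flpo against Cas9, 1.65 for Cre against Flpo), GCLC (0.0174, Cre against Cas9), SRXN1 (−1.33, Flpo against Cas9, and 0.89, Cre against Flpo) and, all for Cre against Flpo, NQO1 (−0.36), MAFG (0.0717), GSTP1 (0.12), GPX4 (0.29), STEAP3 (0.48), NCOA4 (1.18), KEAP1 (0.40), BACH1 (−0.47) and SLC7A11 (−0.44). Without TMM, GCLM (0.0043, Cre against Cas9), NQO1 (−0.16, Flpo against Cas9), HMOX1 (0.34) and IREB2 (0.53, both Cre against Flpo) reversed, and after thinning IREB2 did (0.18). Without single libraries GCLM ranged from −0.41 to 0.0884 for Cre against Cas9, and HMOX1 from −1.14 to 0.0799, NQO1 from −0.16 to 0.44 and BACH1 from −0.37 to 1.31 for Cre against Flpo. None of these reversed values passed, and the cause was not tested. Depth limits NFE2L2, HMOX1, SRXN1, GCLC and TXNRD1 most, since each had at most 3.94 estimated counts in Cre replicate 2. After thinning 4 of the 9 genes could be tested, and with a minimum count of 30, 7 could.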
